A study of Rattus norvegicus with 9 samples.

Results

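The genes described here are the receptors for hormones and neurotransmitters that carry a gene symbol in the deposited expression table of cultured rat cardiac fibroblasts (CFs). The rule for membership is a gene name that begins with any of 20 receptor prefixes, such as AGTR, EDNR, ADORA and PTGER, and takes no measured value, though the set was proposed with earlier results of these data known. Of the 22512 listed genes, 31 matched, and 13 of the 20 prefixes had a match. 27 of the 31 are receptors. The other 4 are ADORA1-2, a second row under the name of the adenosine A1 receptor that is treated apart because of its measured level, HTR5BP (by its name a pseudogene of a serotonin receptor), NPY (a peptide ligand) and NPRL3 (a subunit of the GATOR1 complex, which acts on mTORC1). No beta-adrenergic, natriuretic peptide, nicotinic, opioid, purinergic P2, melanocortin or glutamate receptor matched by symbol, and 20346 genes of the table carry only a LOC number, so receptors listed in that way were not analysed here.

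The 9 libraries came from CFs of neonatal rats at passage 2 or 3, with 3 in the blank group (no treatment), 3 in the AngII group (angiotensin II at 0.1 µM for 72 h) and 3 in the vericiguat + AngII treatment group (vericiguat at 1.0 µM for 24 h, then AngII at 0.1 µM for 72 h). This order is that of the sample labels, while for its migration assay the study describes AngII first and vericiguat second. Vericiguat is a stimulator of soluble guanylate cyclase, which produces cGMP, and AngII is the peptide hormone used to activate the fibroblasts. Whether the libraries of a group came from separate animals or separate cultures is not stated, so p-values measure only the spread between these libraries. The labels call the cells rat, while the genome build in the submitters' processing notes, OryCun2.0, is a rabbit assembly, and 147 gene names of the table contain ORYCUN. The part of this difference in the levels was not tested.

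Nearly all of these receptors are G protein-coupled receptors, which sit in the cell membrane, bind a ligand outside the cell and pass the signal to G proteins inside it. In the heart, fibroblasts are known to respond to AngII through the AT1 receptor, encoded by AGTR1, and to endothelin through the ETA and ETB receptors, encoded by EDNRA and EDNRB. Prostaglandin E2 receptors EP2 and EP4 (PTGER2, PTGER4) and the adenosine A2B receptor (ADORA2B) couple to adenylyl cyclase and raise cAMP, a messenger related to cGMP.

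Values follow the order of replicates 1 to 3 within each group, and the comparisons share libraries, since each group enters a pair of them. The level of every gene is given in FPKM as deposited. FPKM are the fragments counted for a gene, scaled to its length and to the mapped fragments of the library. Levels of different genes are therefore on one scale per length. Whether the rabbit build affected genes unequally was not tested. The libraries differed in more than the receptors. Genes above FPKM 0 made up 24.5% to 41.4% of all listed genes in the blank libraries, 44.0% to 46.4% in the AngII libraries and 73.1% to 74.5% in the treated libraries, and the second blank library had the fewest. The 13 KEF51 entries held 97.6% to 97.9%, 96.7% to 97.5% and 45.3% to 52.3% of the summed FPKM in these groups. The fibroblast markers COL1A2, DCN, LUM and FN1, the 4 listed of 14, summed to 1.70 to 24.7, 7.09 to 25.7 and 368 to 527 FPKM, with FN1 at 0 in the second AngII library. Of the 15 cardiomyocyte markers 7 are listed, and their summed FPKM was 6.95 to 9.68 in the blank group, 47.0 to 114 in the AngII group and 3958 to 6357 in the treatment group, while NPPA was at 0 in all blank libraries and at or below 0.449 FPKM elsewhere. The endothelial markers VWF and KDR, 2 of a list of 10, summed to 0.054 to 0.398, 0.083 to 0.421 and 81.3 to 86.2 FPKM, with KDR at 0 in all blank libraries. The 4 listed of 10 smooth muscle and pericyte markers summed to 1.18 to 25.7, 4.93 to 7.13 and 456 to 752 FPKM, and HBA and HBB2, the 2 listed of 9 blood genes, to 153.9 to 398, 204 to 310.2 and 8364 to 15127 FPKM. None of the 10 macrophage or 12 neuronal markers is listed by symbol. The part of these cell types in the receptor levels was not tested, and in bulk RNA fewer cells of a type and less RNA per cell cannot be told apart.

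The receptors were mostly at or near 0 in the blank and AngII groups. None of the 27 reached FPKM 1 in any of those 6 libraries, against 11.3% of all listed genes that did in at least 1 of them. 7 receptors were above 0 in some blank library, 13 in some AngII library and 19 in some treated library. 5 or 6 receptors were above 0 in each blank library, 7 or 8 in each AngII library and 16 or 17 in each treated library. An exact 0 in such a table can also be a failed estimate, so those values are given as listed at 0. The 7 receptors listed at 0 in all 9 libraries included AGTR2 (the AT2 receptor of AngII), CHRM4 (a muscarinic acetylcholine receptor), HTR1A and HTR1B (serotonin receptors), and NPY2R and NPY4R (receptors of the neuropeptide Y family). They make up 25.9% of the receptors, where 18.8% of all listed genes were at 0 throughout. HTR5BP was at 0 in all libraries as well.

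**Figure D1:**
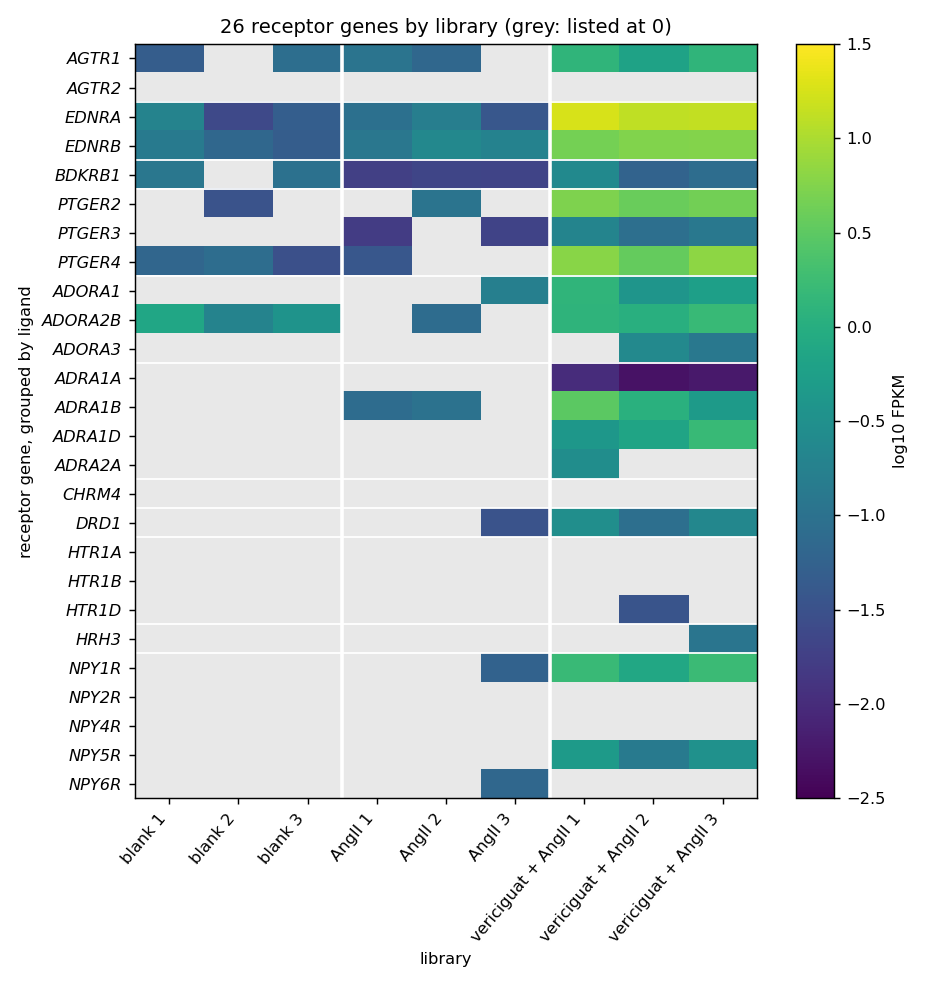
Level of 26 of the receptor genes (rows, grouped by ligand) in each of the 9 libraries (columns), as log10 FPKM, with grey for genes listed at 0. EDNRA and EDNRB were the 2 receptors above 0 in every library, and 6 rows are grey throughout.

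The receptor with the highest FPKM differed between the groups and was the same in all 3 libraries of each. It was ADORA2B in each blank library, EDNRB in each AngII library and EDNRA in each treated library. In the AngII group the lead was small, with EDNRB at 0.123 against AGTR1 at 0.11 FPKM in replicate 1 and at 0.187 against ADORA1 at 0.166 FPKM in replicate 3, and since depth is unknown these leads cannot be told from counting error. These orders compare genes within a library and so do not depend on the scaling between libraries. ADORA2B made up 48.3% to 56.7% of the summed receptor FPKM in the blank group, 0% to 10.6% in the AngII group and 2.82% to 4.10% in the treatment group. EDNRA made up 5.88% to 14.9%, 6.58% to 20.6% and 35.2% to 42.0%. The share of EDNRA was thus higher in every treated library than in any other library, while its blank and AngII ranges overlapped. Summed over the 27 receptors, the level was 1.30, 0.408 and 0.673 FPKM in the blank group, 0.482, 0.776 and 0.593 FPKM in the AngII group and 45.0, 31.6 and 38.3 FPKM in the treatment group. Expressed per 1000000 units of the FPKM outside the KEF51 entries and ADORA1-2, the sum was 87.0 to 113, 38.8 to 67.4 and 91.1 to 127. Without ADORA2B it was 40.3 to 58.4, 38.8 to 60.3 and 88.1 to 124, so that the blank and AngII groups overlapped once ADORA2B was left out.

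Among the angiotensin receptors, AGTR1 was listed at 0.048, 0 and 0.087 FPKM without treatment, 0.11, 0.069 and 0 with AngII alone and 1.29, 0.628 and 1.32 with vericiguat + AngII. The blank and AngII values overlapped, and all treated values lay above both. AGTR1 did not reach FPKM 1 in 3 libraries and was therefore not among the 10908 tested genes. In a fit without that minimum, over 18281 genes, its log2 fold change was 0.02 between AngII and blank (SE 0.126, limma adjusted p = 1) and 0.96 between the treatment group and AngII (SE 0.126, limma adjusted p = 7.04e-05), under the fold-change threshold of 1. By its rank among all listed genes, AGTR1 stood at percentiles 46.1 to 52.1 in the treated libraries. In the blank and AngII libraries its percentile was 64.3 to 75.5 wherever it was above 0. It was 37.8 in the second blank and 28.0 in the third AngII library, where AGTR1 was at 0. At most 46.4% of genes were above 0 in a blank or AngII library. Any gene above 0 there thus ranks above the treated percentiles of AGTR1, and no difference in rank is read from these values. The symbol AGTR1 is not in the rat gene table of GRCr8, and which rat gene the row stands for was not tested.

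The endothelin receptors EDNRA and EDNRB bind the same peptides, and EDNRA is best known for contraction of vascular smooth muscle. EDNRA was at 0.194, 0.024 and 0.050 FPKM without treatment, 0.096, 0.160 and 0.039 with AngII alone and 18.3, 13.3 and 13.5 with vericiguat + AngII. EDNRB was at 0.134, 0.069 and 0.048 FPKM without treatment, 0.123, 0.232 and 0.187 with AngII alone and 4.64, 5.60 and 5.63 with vericiguat + AngII. For both genes the blank and AngII groups overlapped and the treatment group lay apart. The ratio of EDNRA to EDNRB within a library was 0.348 to 1.45 in the blank group, 0.209 to 0.780 in the AngII group and 2.36 to 3.95 in the treatment group. EDNRA thus exceeded EDNRB in every treated library and in no AngII library. The mean FPKM of EDNRA was 152.7 times as high in the treatment group as in the AngII group and that of EDNRB 29.3 times, where the median ratio over the 6666 tested genes above 0 in all AngII libraries was 37.8. Against the blank group the ratios were 168.1 and 63.3, and the median over 4633 genes was 52.1.

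The prostaglandin E2 receptors were low outside the treatment group. PTGER2 was at 0, 0.033 and 0 FPKM without treatment, 0, 0.109 and 0 with AngII alone and 5.26, 3.85 and 4.46 with vericiguat + AngII. PTGER4 was at 0.066, 0.085 and 0.030 FPKM without treatment, 0.038, 0 and 0 with AngII alone and 6.24, 3.53 and 6.56 with vericiguat + AngII. In the treatment group these receptors were within 1.47 times of each other in each library. PTGER3, whose product EP3 lowers cAMP, stayed at or below 0.199 FPKM in every library.

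ADORA2B was the receptor whose AngII values all lay below its blank values. It was listed at 0.739, 0.197 and 0.361 FPKM without treatment, 0, 0.082 and 0 with AngII alone and 1.27, 1.04 and 1.57 with vericiguat + AngII. Its percentile among all listed genes was 90.2 to 94.6 in the blank group, 26.8 to 66.9 in the AngII group and 50.2 to 54.0 in the treatment group, where genes listed at 0 share the middle of their ranks. By level, then, ADORA2B was highest in the treatment group, and by rank it was highest in the blank group. At most 41.4% of genes were above 0 in a blank library, so any gene above 0 there ranks above the treated percentiles of ADORA2B. As a share of the FPKM outside the KEF51 entries and ADORA1-2 and expressed per 1000000 units, it held 46.6 to 59.2 in the blank group, 0 to 7.12 in the AngII group and 3.02 to 5.01 in the treatment group. The blank values lay above all others on that scale, too. The other adenosine receptors were lower, with ADORA1 at 0 without treatment, at 0, 0 and 0.166 FPKM with AngII alone and 1.32, 0.388 and 0.570 with vericiguat + AngII, and ADORA3 at 0 except for 0.242 and 0.127 FPKM in treated libraries 2 and 3.

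**Figure D2:**
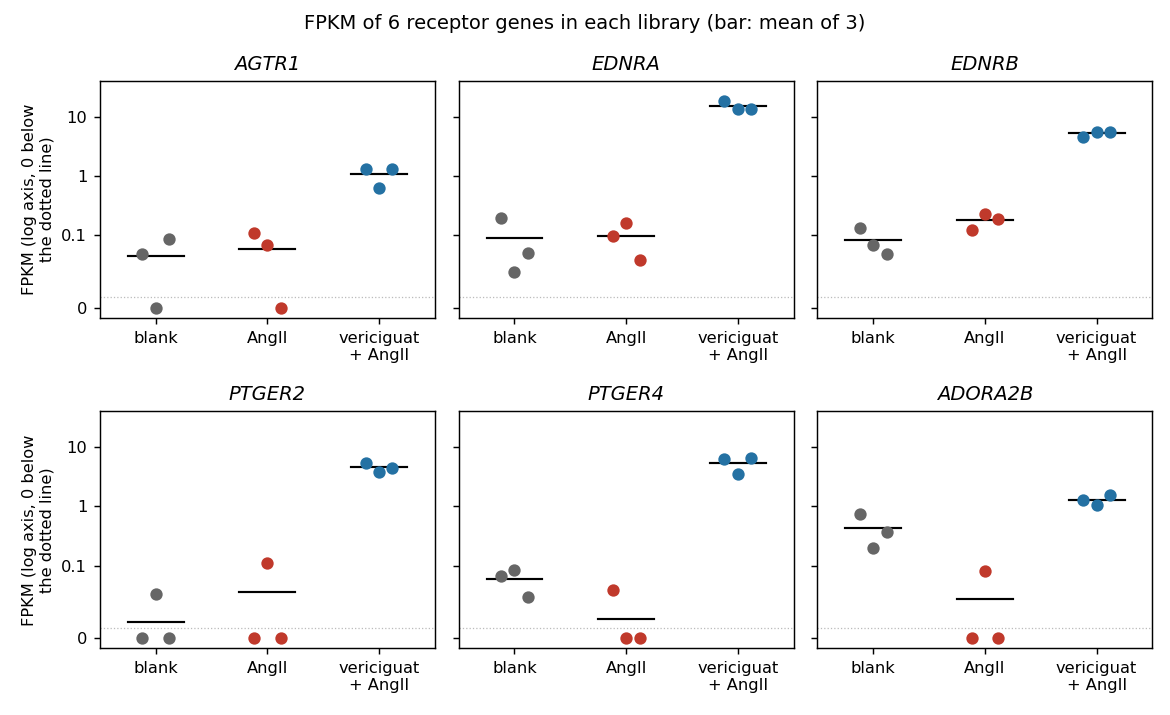
FPKM (log axis, with values listed at 0 drawn below the dotted line) of AGTR1, EDNRA, EDNRB, PTGER2, PTGER4 and ADORA2B in each library by group, where points are libraries and bars are means of 3. The treated libraries lie above the others for each gene, and only ADORA2B has all its AngII values (0 to 0.082) below its blank values (0.197 to 0.739).

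The remaining receptors were below FPKM 1 in at least 7 libraries. Of the alpha-adrenergic receptors, which bind noradrenaline and adrenaline, ADRA1B was at 0 without treatment, at 0.081, 0.102 and 0 FPKM with AngII alone and 3.14, 1.11 and 0.485 with vericiguat + AngII. ADRA1D was at 0 in the blank and AngII libraries and at 0.414, 0.695 and 1.54 FPKM with vericiguat + AngII. ADRA1A stayed at or below 0.010 FPKM, and ADRA2A was above 0 only in the first treated library, at 0.285 FPKM. Among the receptors of neuropeptide Y, NPY1R was at 0 without treatment, at 0, 0 and 0.058 FPKM with AngII alone and 1.61, 0.790 and 1.66 with vericiguat + AngII. NPY5R was above 0 only in the treated libraries, at 0.478, 0.142 and 0.337 FPKM, and the peptide NPY itself only in the first of them, at 0.239 FPKM. NPY6R was the only receptor above 0 in an AngII library (0.069 FPKM in replicate 3) and at 0 in all treated libraries. Its symbol is not in the rat gene table of GRCr8, so this value is not read as that of a rat receptor.

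BDKRB1, the B1 receptor for kinin peptides, was at 0.122, 0 and 0.097 FPKM without treatment, 0.018, 0.022 and 0.021 with AngII alone and 0.251, 0.060 and 0.084 with vericiguat + AngII. Its treated values lay above its AngII values and overlapped its blank values. DRD1, a dopamine receptor, was at 0 without treatment, at 0.033 FPKM in the third AngII library and at 0.300, 0.091 and 0.224 with vericiguat + AngII. HTR1D and HRH3, receptors of serotonin and histamine, were above 0 in a single treated library each, at 0.034 and 0.113 FPKM.

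Of the 27 receptors, the treated values lay above all AngII values in 15 (55.6%) and above all blank values in 14 (51.9%). For all listed genes the shares were 66.6% and 67.7%. The AngII values lay above all blank values for none of the receptors, against 10.4% of all listed genes, and below them for ADORA2B alone, against 0.933%. The share of receptors that were higher in the treatment group was therefore not above that of the whole table.

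To find DEGs, limma was run on log2(FPKM + 1) for the 10908 genes that reached FPKM 1 in 3 or more libraries, and a gene was called where its log2 fold change was 1 or more in size and its Benjamini-Hochberg adjusted p was below 0.05. Only EDNRA, EDNRB, PTGER2, PTGER4 and ADORA2B of the 27 receptors passed that minimum, in each case through the treated libraries alone, so that a difference from the other groups was fixed by the minimum. With 3 libraries a group, the smallest two-sided p of an exact permutation test is 0.1.

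For AngII against blank, none of the 5 tested receptors was called by limma, where 1.55% of all tested genes were, and 1 of the 5 (ADORA2B) had an unadjusted p below 0.05. The log2 fold change of ADORA2B was -0.46 ± 0.127 (SE, limma adjusted p = 0.106), with values lower in 3 of 3 AngII libraries. The log2 fold changes of the other 4 ran from -0.07 for PTGER4 to 0.12 for EDNRB, with standard errors of 0.0979 to 0.164. When the libraries were scaled by median ratios, so that their typical gene has the same level, ADORA2B was called, at a log2 fold change of -1.39 ± 0.183 (SE, limma adjusted p = 0.00181), and 8.39% of all tested genes were. Quantile normalization gave -1.38 (limma adjusted p = 0.000725, 7.35% of all tested genes called) and a pseudocount of 0.1 gave -1.99 (limma adjusted p = 0.0112, 8.88% called). Rescaling to the same sum without the KEF51 entries gave -3.15 (limma adjusted p = 0.0130, 6.4% called), and without these and ADORA1-2 -4.75 (limma adjusted p = 0.00775, 11.7% called). It was not called on FPKM as deposited with no minimum (limma adjusted p = 0.260), as TPM (0.420), with only the compared groups (0.278), with replicates as a block (0.131) or with a library left out, where log2 fold changes ran from -0.58 to -0.31, all short of the fold-change threshold, and limma adjusted p-values from 0.0305 to 0.290. Under median-ratio scaling the call held with each library left out in turn, at log2 fold changes from -1.67 to -1.12 and limma adjusted p-values of 0.000701 to 0.0105. These combined fits were chosen after the ADORA2B values were seen. Median-ratio scaling divides the FPKM of the second blank library by a size factor of 0.0792, against 0.263 to 0.463 for the other blank and AngII libraries and 13.9 to 15.8 for the treated ones.

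For the treatment group against AngII, all 5 tested receptors were called higher, as were 99.5% of all tested genes. The log2 fold change was 3.85 for EDNRA (standard error 0.147), 2.63 for PTGER4 (standard error 0.164), 2.41 for EDNRB (standard error 0.0979), 2.41 for PTGER2 (standard error 0.100) and 1.15 for ADORA2B (standard error 0.127), with adjusted p-values from limma of 3.60e-10 to 2.64e-06. Over all tested genes the median was 2.76. On FPKM as deposited EDNRA thus lay above the typical gene and ADORA2B by 1.61 below it. PTGER2 and PTGER4 lay below it by 0.36 and 0.13, but above it by 0.38 and 0.81 with a pseudocount of 0.1, by 0.20 and 0.31 with median-ratio scaling and by 0.22 and 0.38 with quantile normalization. Relative to the median, ADORA2B stood at -1.29, -0.04 and -0.21 in these settings. It stood at 0.08 after rescaling without the KEF51 entries and ADORA1-2, so its place below the typical gene depended on the setting. The -0.04 does not bear on this, since median-ratio scaling left the treated values of ADORA2B small beside the added 1. After median-ratio scaling none of the 5 was called (4.16% of all tested genes were), and after quantile normalization again none (3.47%). EDNRA then had a log2 fold change of 0.68 ± 0.162 (SE, limma adjusted p = 0.0190) and 0.59 ± 0.164 (SE, limma adjusted p = 0.0436), short of the fold-change threshold of 1. The estimates of the other 4 lay between -0.28 and 0.40 under these scalings, with that of EDNRB below 0 under both. Median-ratio scaling divided the treated FPKM by 13.9 to 15.8 before 1 was added. These 4, at 6.56 FPKM or less as deposited, thus could not be called higher by it, even from 0. Their lack of a call there says nothing about a change. Whether quantile normalization sets a like limit was not tested. After rescaling without the KEF51 entries and ADORA1-2, 2 of the 5 (EDNRA and PTGER4) were called higher, where 12.9% of all tested genes were called.

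For the treatment group against blank, 4 of the 5 tested receptors were called higher, against 99.3% of all tested genes, at log2 fold changes of 3.87 for EDNRA, 2.57 for PTGER4, 2.53 for EDNRB and 2.44 for PTGER2, where the median of all tested genes was 2.83. ADORA2B had a log2 fold change of 0.69 ± 0.127 (SE, limma adjusted p = 0.000234), under the fold-change threshold. With a pseudocount of 0.1 it was called higher (log2 fold change 1.5, limma adjusted p = 0.00236, 99.7% of all tested genes called), and without the fold-change threshold it was called as well (99.7%). Its direction depended on the scaling. It was lower in the treatment group by median-ratio scaling (log2 fold change -1.35, limma adjusted p = 0.000766) and by quantile normalization (log2 fold change -1.64, limma adjusted p = 0.000210), and was the only receptor called there, among 9.56% and 8.65% of all tested genes. EDNRB, PTGER2 and PTGER4 could not be called higher by median-ratio scaling here either. After rescaling without the KEF51 entries and ADORA1-2, EDNRA was called higher and ADORA2B lower (35.3% of all tested genes called).

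**Figure D3:**
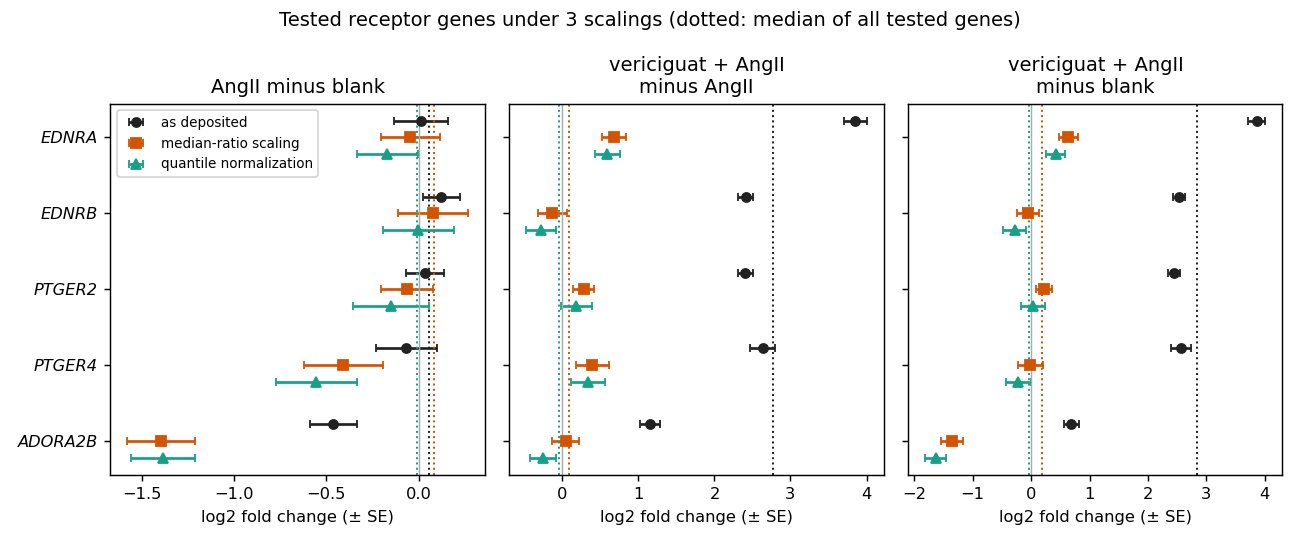
Log2 fold change with its standard error (x axis) of the 5 tested receptors in the 3 comparisons, for FPKM as deposited, with median-ratio scaling and with quantile normalization, and dotted lines at the median of all tested genes for each scaling. ADORA2B lies left of the other receptors in both comparisons with the blank group under each scaling, and the values of EDNRA for the treatment group lie farthest right.

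In the fit without the FPKM minimum, 20 of the 27 receptors were tested. 7 were called higher with vericiguat + AngII than with AngII alone, where 61.5% of the 18281 genes were, adding ADRA1B (log2 fold change 1.15, limma adjusted p = 0.00594) and NPY1R (log2 fold change 1.18, limma adjusted p = 2.30e-05) to the 5 above. None was called by limma for AngII against blank, where 0.432% of the genes were, and ADORA2B alone had an unadjusted p below 0.05 there.

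The wider signalling genes of these receptors were sparsely listed by symbol. Of 59 G protein subunits, adenylyl cyclases and downstream kinases, 9 are listed and 7 were tested. None of the 7 was called for AngII against blank, where 1.55% of all tested genes were. All 7 were called higher in both comparisons of the treatment group, where 99.5% and 99.3% of all tested genes were, and 0 of the 7 were called in either under median-ratio scaling or quantile normalization. By median-ratio scaling, all but GNG10 and ADCY5 were too low in the treated libraries to be called higher, even from 0. The median log2 fold change of the 7 was 2.23 for the treatment group against AngII and 0.13 for AngII against blank, beside medians of 2.76 and 0.06 over all tested genes. None of these genes, of the tested ligands and enzymes, of RGS4 and NPRL3 reached FPKM 1 in 3 libraries outside the treatment group, so for them, too, a higher level there was fixed by the minimum. GNG10, a G protein gamma subunit, had the highest mean level, at 0.493, 0.122 and 0 FPKM without treatment, 2.84, 0.306 and 1.78 with AngII alone and 36.8, 32.4 and 27.9 with vericiguat + AngII. ADCY5, a cardiac adenylyl cyclase, followed with 0.057 to 0.330 FPKM, 0.102 to 0.541 FPKM and 17.7 to 26.0 FPKM. Of 30 genes that end receptor signals, RGS4 alone is listed, at 0 without treatment, at 0, 0.193 and 0.188 FPKM with AngII alone and 7.06, 7.54 and 9.58 with vericiguat + AngII. RGS4 was called higher in both of these comparisons, as nearly all tested genes were, and not for AngII against blank. Against AngII its log2 fold change was 0.25 (limma adjusted p = 0.347) with median-ratio scaling and 0.18 (limma adjusted p = 0.588) with quantile normalization, and it was called in no comparison under either. By median-ratio scaling its treated level was too low to be called higher, even from 0.

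Of 52 ligands and ligand-processing enzymes, 10 are listed and 5 were tested. None was called for AngII against blank (1.55% of all tested genes), and all 5 were called higher in both comparisons of the treatment group (99.5% and 99.3%), with a median log2 fold change of 2.43 against AngII beside 2.76 over all tested genes. Under median-ratio scaling and quantile normalization 0 of the 5 were called higher in these comparisons. By median-ratio scaling, all of them but ACE were too low in the treated libraries to be called higher, even from 0. ACE, which makes AngII from angiotensin I, had the highest mean level, with 0.191 to 0.619 FPKM in the blank group, 0.179 to 0.448 FPKM in the AngII group and 23.0 to 27.6 FPKM in the treatment group. PTGS1, a cyclooxygenase of prostaglandin synthesis, followed at 0.542, 0.312 and 0.287 FPKM without treatment, 0.104, 0.065 and 0.127 with AngII alone and 6.52, 6.22 and 10.3 with vericiguat + AngII. EDN1, the gene of endothelin-1, was named after its values were seen. It was at 1.03, 0.069 and 0.361 FPKM without treatment, at 0 in all AngII libraries and at 3.83, 2.92 and 4.17 with vericiguat + AngII. PTGS1 and EDN1 had AngII values below all blank values, as 0.933% of all listed genes did, and their log2 fold changes were -0.32 (limma adjusted p = 0.419) and -0.52 (limma adjusted p = 0.240). After median-ratio scaling both were called lower, at -1.13 (limma adjusted p = 0.0405) and -1.28 (limma adjusted p = 0.00360), and after quantile normalization at -1.07 and -1.36. They were the 2 of the 5 called there, where 8.39% and 7.35% of all tested genes were called. Against blank, EDN1 in the treatment group was called higher as deposited (log2 fold change 1.68) and lower after quantile normalization (log2 fold change -1.13, limma adjusted p = 0.000866). Against AngII, where EDN1 was at 0 throughout, its log2 fold change was only 0.32 and 0.23 by median-ratio scaling and quantile normalization.

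NPRL3, which the prefix for natriuretic peptide receptors also matched, was at 0.689, 0 and 0.268 FPKM without treatment, 0.284, 0.285 and 0 with AngII alone and 18.8, 14.7 and 17.2 with vericiguat + AngII. Between AngII and blank it had a log2 fold change of -0.13 (limma adjusted p = 0.899), and between the treatment group and AngII of 3.91 (limma adjusted p = 2.75e-09). The latter value was 0.55 and 0.53 after median-ratio scaling and quantile normalization, where it was not called.

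ADORA1-2 stood apart from every receptor. It was listed at 18516, 32625 and 29989 FPKM without treatment, 35189, 46101 and 38658 with AngII alone and 73030, 82562 and 120668 with vericiguat + AngII. Each AngII value was above each blank value, and each treated value above both. The row named ADORA1 was at or below 1.32 FPKM in every library. What sequence the ADORA1-2 row stands for is not given in the sources used here, and rows that share sequence with other loci can share their reads, so its level is not read as that of the adenosine A1 receptor.

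Outside the KEF51 entries ADORA1-2 was the highest gene in all 9 libraries, from 7.54 to 36.3 times the level of the next. Among all genes it ranked 9th to 12th in the blank and AngII libraries and 2nd in each treated library. It held 59.7%, 90.0% and 79.5% of the FPKM outside the KEF51 entries in the blank libraries and 76.9%, 80.0% and 71.7% in the AngII libraries. In the treated libraries it held 17.1%, 19.3% and 27.8%. The level was therefore highest in the treatment group, and the share of the FPKM outside the KEF51 entries was lowest there. Its ratio to the summed KEF51 entries was 0.0175 ± 0.00415 without treatment, 0.0236 ± 0.00330 with AngII alone and 0.216 ± 0.0461 with vericiguat + AngII (mean ± SD, n = 3 each).

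**Figure D4:**
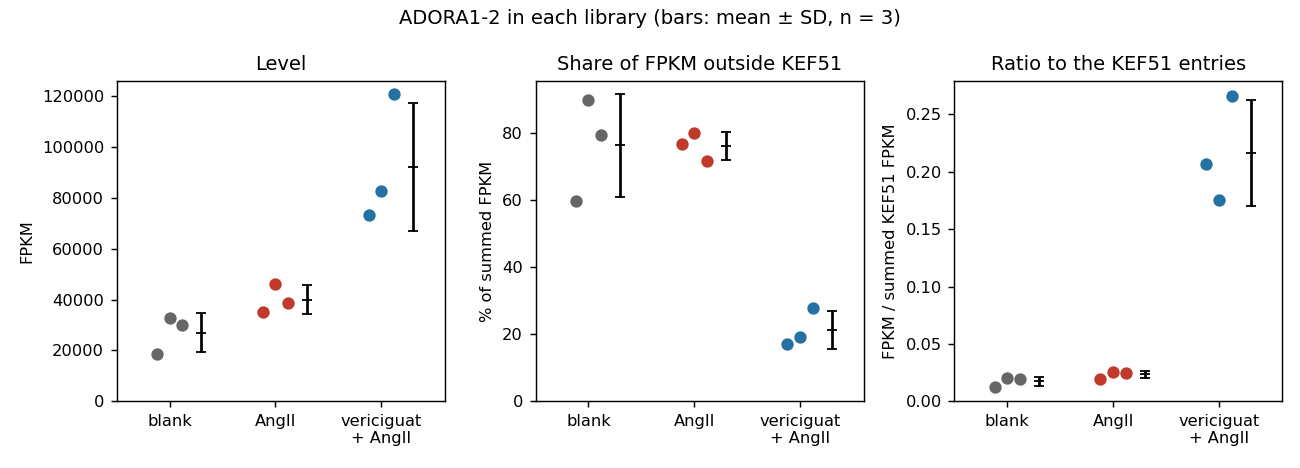
ADORA1-2 in each library by group, as FPKM, as its percentage of the summed FPKM outside the KEF51 entries, and as its ratio to the summed KEF51 entries, where points are libraries and bars are mean ± SD of 3. Level and ratio are highest in the treatment group, while the share is 17.1% to 27.8% there against 59.7% to 90.0% in the other groups.

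The log2 fold change of ADORA1-2 was 0.60 between AngII and blank (SE 0.249, limma adjusted p = 0.299), 1.18 between the treatment group and AngII (SE 0.249, limma adjusted p = 0.000679) and 1.78 between the treatment group and blank (SE 0.249, limma adjusted p = 2.35e-05). In the last comparisons the medians of all tested genes were 2.76 and 2.83, above the values of ADORA1-2. After median-ratio scaling it was called lower in the treatment group, at -4.19 against AngII and -4.32 against blank (limma adjusted p = 0.00411 and 0.00210). Quantile normalization, which fixes values by rank, gave 2.93 and 2.86 in the other direction (limma adjusted p = 4.73e-05 and 3.24e-05). Without the third treated library its log2 fold change against AngII was 0.97, under the fold-change threshold.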

How the data were processed

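RNA-seq of 9 CF libraries was analysed. By the study's methods, the authors cleaned the reads, aligned them to a genome, also predicted transcripts and computed gene levels. The deposited table is named as FPKM, with no scaling between libraries stated. The submitters' processing notes name FastQC 0.11.9, Trimmomatic 0.39, HISAT2 2.2.1, featureCounts 2.0.1 and the build OryCun2.0. The table holds no counts, so depth is unknown and no counting interval is given. Groups and replicates came from the titles, and no coordinates are printed. Of the 31 symbols, 27 are in the rat gene table of GRCr8 when case is ignored. The others are AGTR1, ADORA1-2, HTR5BP and NPY6R.

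All 9 libraries entered 1 linear model per gene (limma 3.58.1, R 4.3.3) of log2(FPKM + 1), moderated by eBayes with a trend on the mean, and p-values were adjusted by Benjamini-Hochberg over the 10908 genes tested. Fold changes on this scale understate the change of low genes. The fit was run on simulated data with normal noise around a shared baseline and few changed genes. That setting holds no shift of nearly all genes, so it does not test the fit for the comparisons of the treatment group. Percentiles are mid-ranks over all 22512 genes. Of the 31 genes, 1 is not reported here by name and the others are named, with the tested ones described in full, and of the pathway lists those called for AngII against blank and the 2 with the highest mean FPKM. The members and lists were chosen with earlier results of these data known. Alternatives were other pseudocounts, filters, scalings and thresholds, only the compared groups, the replicate number as a block, and each library left out.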

Additional observations from a re-analysis of the deposited data

How the results depend on the processing

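The number of receptors called for AngII against blank was 0, and 1 (ADORA2B) with a pseudocount of 0.1, median-ratio scaling, quantile normalization, or rescaling to the same sum without the KEF51 entries or without these and ADORA1-2 (the last was added after the data were seen). Of 5 called for the treatment group against AngII, 0 were called by median-ratio scaling and quantile normalization and 2 by the last rescaling. EDNRB, PTGER2, PTGER4 and ADORA2B were too low to be called higher by median-ratio scaling, as given above. Without the filter ADRA1B and NPY1R were called higher as well, where 61.5% of all genes were. Against blank, 4 were called higher. By median-ratio scaling and quantile normalization the only call was ADORA2B, lower, which is not among the 4. The last rescaling called EDNRA higher and ADORA2B lower. The number called was 5 with a pseudocount of 0.1 or without the fold-change threshold. It was 6 without the filter, where more receptors were tested and ADRA1B and NPY1R were called higher. Rescaling without the KEF51 entries alone called 5, with ADORA2B lower (log2 fold change -1.58, limma adjusted p = 0.0286). For the filter and KEF51 settings the share of all genes called against blank is not given here. With each library left out the numbers called in the comparisons stayed at 0, 5 and 4.

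The calls over all tested genes for AngII against blank numbered 169. They were 969 with a pseudocount of 0.1, 79 without the filter, 915 with median-ratio scaling, 802 with quantile normalization, 20 as TPM, 698 without the KEF51 entries, 1276 without these and ADORA1-2, 0 with only the compared groups, 485 with unadjusted p and 0 to 309 with a library left out (0 without the third blank library, 309 without the second). For the treatment group against AngII they were 454, 378 and 1412 by median-ratio scaling, quantile normalization and the last rescaling, and against blank 1043, 944 and 3851.

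Signs turned for single genes. For AngII against blank, the log2 fold change of EDNRA was -0.0447 by median-ratio scaling, -0.17 by quantile normalization, -0.0048 as TPM, -0.16 without the KEF51 entries and -0.27 without these and ADORA1-2, and from -0.0292 to 0.0816 with a library left out. EDNRB gave -0.0012 by quantile normalization, PTGER2 -0.0628 and -0.15 by median-ratio scaling and quantile normalization (-0.0156 to 0.0590 with a library left out), ADORA1-2 -0.14, -0.0765 and, by the last rescaling, -0.21, and NPRL3 from -0.31 to 0.0695 with a library left out. For the treatment group against AngII, EDNRB gave -0.13 and -0.28 by median-ratio scaling and quantile normalization, ADORA2B -0.25 by the latter, and ADORA1-2 -4.19 by median-ratio scaling, -1.86 without the KEF51 entries and -3.60 by the last rescaling. Against blank, EDNRB gave -0.0566 and -0.28 and PTGER4 -0.0135 and -0.22 by median-ratio scaling and quantile normalization, ADORA2B -1.35, -1.64 and, by the 2 rescalings, -1.58 and -3.50, and ADORA1-2 -4.32 by median-ratio scaling and -1.85 and -3.81 by the rescalings. The cause was not tested.

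No sign that the replicate numbers pair the libraries was seen. Deviations of same-numbered libraries from their group means correlated across genes at -0.0616 to 0.0646, and the replicate block left 7 genes called for AngII against blank and none of the receptors. The depth is unknown, so differences at low FPKM cannot be told from counting error, and no FPKM can be named above which they can. This limit also holds for ADORA2B, EDN1 and PTGS1 in the blank and AngII libraries.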
